A study of Drosophila melanogaster with 6 samples.

Results

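The genes described here are named for the general machinery of transcription. It comprises RNA polymerases I, II and III, the Mediator complex, the TBP-associated factor (TAF) family and the general transcription factors. Among the genes are also the elongation factor gene TfIIS and paralogs such as Taf10b and TfIIA-S-2. They were chosen by symbol, as probe sets whose single annotated gene starts with Polr1, Polr2, Polr3, MED and a digit, Taf and a digit, or TfII. With 1 probe set per gene, the one with the highest mean over the arrays, the rule found 60 genes among 10844. Of these, 6 belonged to Pol I, 5 to Pol II, 7 to Pol III, 20 to Mediator, 13 to the TAF family and 9 to the TfII factors.

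Expression was measured on Affymetrix arrays in cells sorted from Drosophila embryos at late stage 11 to early stage 12. All embryos carried TinD-GFP, a reporter that, per the labels, places GFP in Tinman-expressing cells of the cardiac mesoderm. There were 3 arrays of GFP-positive cells and 3 arrays of GFP-negative cells, and both groups came from embryos of this same genotype. GFP-negative cells are all those that the sort found without GFP. The labels do not say whether replicates came from separate collections or sorts, so the p-values rest on the scatter of these 6 arrays alone, which could be technical.

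RNA polymerase II makes messenger RNA, RNA polymerase I the large ribosomal RNAs, and RNA polymerase III transfer RNAs and other small RNAs. At a Pol II promoter the TFIID complex, built from the TATA-binding protein and TAFs, binds DNA first, and TFIIA, TFIIB, TFIIF, TFIIE and TFIIH complete the assembly. Mediator is a large complex that carries signals from enhancer-bound activators to this assembly. Several small polymerase subunits are shared between the polymerases, so a symbol such as Polr2E does not mark a protein of Pol II alone.

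As a check of the sort, 14 cardiac mesoderm genes were listed. Of these, tin, which encodes Tinman itself, and Mef2 had no probe set under their symbol alone, and 12 were measured. Him, an inhibitor of muscle differentiation, was the only one past the threshold of an adjusted p of 0.05, and it was higher in GFP-positive cells. At an unadjusted limma p under 0.05 there were 6 of the 12, 3 higher and 3 lower in GFP-positive cells, where 7.33% and 8.29% of all genes were. The T-box genes Doc1, Doc2 and Doc3 (log2 differences of -0.21, -0.42 and -0.36) and the GATA factor gene pnr (-0.29) were lower in GFP-positive cells without overlap, and Him, tup and eve (0.56, 0.45 and 0.34) were higher without overlap. The summed linear signal of this list was 733.8 to 771.3 on GFP-positive arrays and 669.1 to 745.9 on GFP-negative arrays, so the groups overlapped. The heart factor gene Hand had means of 2.49 in the GFP-positive group and 1.10 in the GFP-negative group, near or under the background level of 2.44, and lbe lay under it in both groups. Of 6 somatic muscle genes 4 rose, where 1.5% of all genes did. Their summed signals were 580.8 to 653.7 on GFP-positive and 309.9 to 335.9 on GFP-negative arrays. Of 7 DNA replication genes 5 fell, where 0.968% of all genes did, with sums of 1189 to 1233 on GFP-positive and 1644 to 1864 on GFP-negative arrays. Of genes with a mean log2 signal above 4, 5.04% were called in either direction. By limma 0 of 6 hemocyte, 5 neuroblast, 2 neuron, 3 epidermis and 3 germline genes were called, and 4, 2, 0, 0 and 1 of them had an unadjusted p under 0.05, where 15.6% of all genes did. The 4 hemocyte genes with such a p, srp, Pxn, ush and Hml, were higher in GFP-positive cells, with log2 differences of 0.43, 0.60, 0.22 and 1.84. The first 3 had no overlap between the groups, and Hml lay below background in both. Of the 6 hemocyte genes the rest did not rise: gcm was lower without overlap (-0.17), and crq differed by -0.0031 with overlap. The summed signal of the hemocyte list was 423.3 to 463.5 on GFP-positive and 389.8 to 411.9 on GFP-negative arrays. Differences also moved with gene span, described further below, and the median was 0.24 in the decile of longest genes. Median spans were 57119 bp for the somatic muscle, 19464 bp for the epidermis and 15941 bp for the hemocyte list. They were 5466.5 bp for the cardiac mesoderm and 2884 bp for the DNA replication list, against 2385 bp for all genes. The part of span in the marker differences, and the part of these differences in the results below, was not tested. In such sorted pools, fewer cells of a type and less RNA per cell cannot be told apart.

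Of the 60 genes, 54 did not pass the test between GFP-positive and GFP-negative cells. In GFP-positive cells 4 fell, namely the polymerase subunit genes Polr2E, Polr2J and Polr2L and the TFIIA subunit gene TfIIA-S. The Mediator gene MED26 and the TFIID gene Taf3 rose. All of these changes were between 1.20-fold and 1.41-fold. Rose and fell here mean past an adjusted p of 0.05 in limma, fitted over all 13966 probe sets with a prior variance that follows the level.

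These 6 genes are 10% of the members, while 2.47% of all 10844 genes and 2.43% of all probe sets were called. Calls are more frequent at high signal. Among genes with a mean log2 signal above 4 the shares were 6 of 55 members (10.9%) and 5.04% of 5179 genes. By direction, 2 members rose where 1.5% of all genes did, and 4 fell where 0.968% did. A total of 58 members had means above the background level in both groups. That level, 2.44, is the highest mean among 23 control probe sets for other organisms. Taf10b and TfIIA-S-2, both paralogs of core factor genes, lay below it in both groups.

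The calls depended on the arrays and the model. When limma used 1 prior variance at every level it called 0 members, and 14 had an unadjusted p under 0.05. Leaving out 1 array at a time left 0 to 3 calls, namely 0 whenever a GFP-positive array was dropped, and 2, 3 and 0 when GFP-negative replicate 1, 2 or 3 was dropped. An adjustment for gene span, described further below, also left 0.

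A total of 43 members had a lower mean in GFP-positive cells (71.7%), against 52.7% of all genes. The median log2 difference was -0.14 for the members and -0.023 for all genes. At an unadjusted p under 0.05 there were 18 members (30%), 3 higher and 15 lower, where 15.6% of all genes were, 7.33% higher and 8.29% lower. The groups did not overlap in 24 members (40%), 20 of them lower in GFP-positive cells and 4 higher. Over all genes 20.2% showed no overlap, 11% lower and 9.28% higher, and over genes above background in both groups 25.9%, with 14.4% lower. At a mean log2 signal above 4 the shares lay closer. There 30.9% of 55 members and 27% of 5179 genes had an unadjusted limma p under 0.05. These were 3 members higher and 14 lower, and 641 genes higher and 756 lower. No overlap was seen in 41.8% of these members and 31.4% of these genes, and a lower mean in 72.7% and 56.2%.

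**Figure D1:**
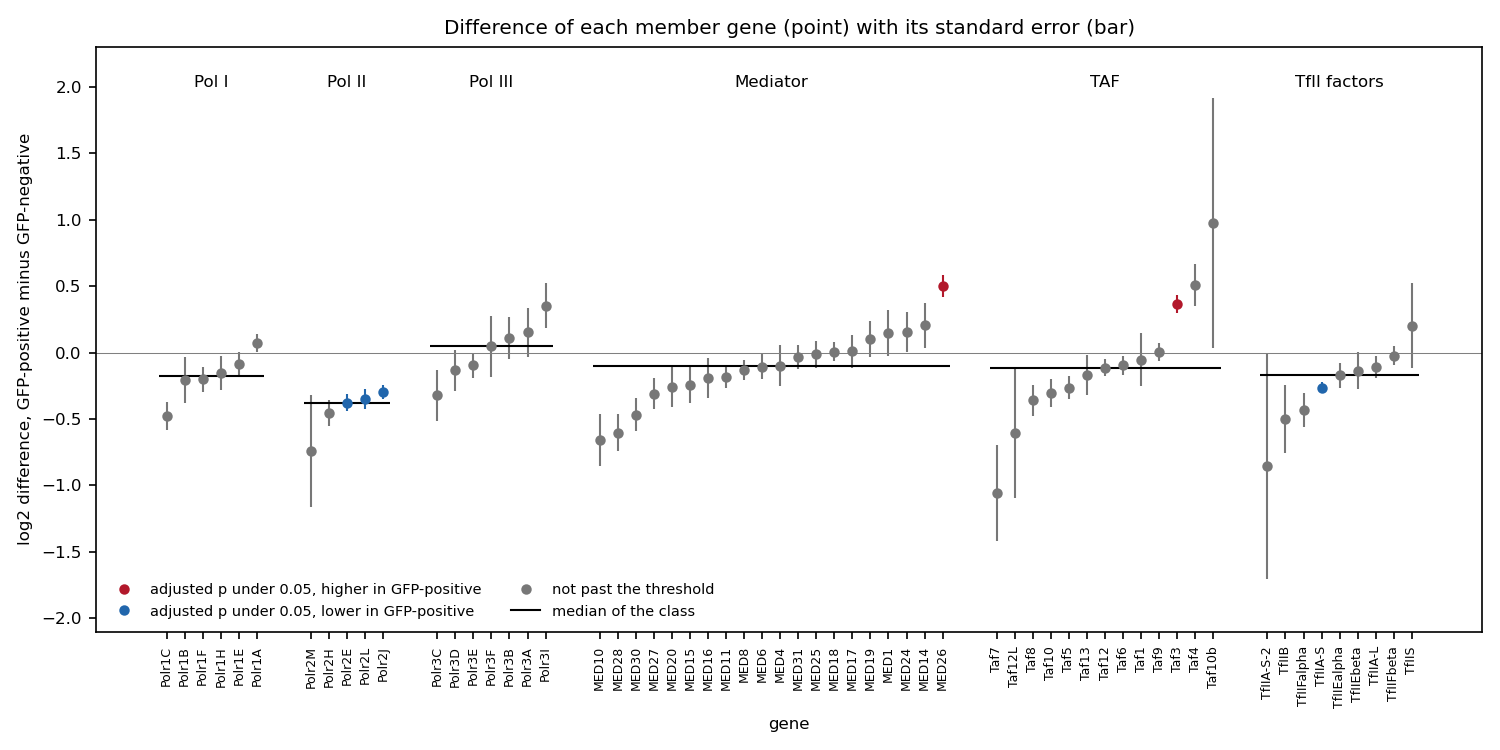
Log2 difference (vertical axis, GFP-positive minus GFP-negative) of each of the 60 genes, with its standard error as a bar and the class median as a horizontal line. Coloured points passed the threshold, 4 of them lower and 2 higher, and the line for Pol II at -0.38 lies below those of the other classes.

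By class, the median log2 difference was -0.38 for Pol II, -0.18 for Pol I, -0.17 for the TfII factors, -0.11 for TAFs, -0.10 for Mediator and 0.046 for Pol III. The classes follow the symbols, and Polr2E, Polr2H and Polr2L of the Pol II class encode subunits shared between polymerases. Median gene spans were 763 bp for Pol II, 1373.5 bp for Pol I and 2005 bp for Pol III. For each array, the median over a class was taken of the deviation from the mean of the GFP-negative arrays. This reference holds the GFP-negative arrays near 0 by construction. For Pol II it was -0.33, -0.42 and -0.38 on the GFP-positive arrays and -0.028, 0.040 and -0.0089 on the GFP-negative arrays, so the groups lay far apart. For Pol I it was -0.12, -0.13 and -0.13 on GFP-positive and -0.020, -0.065 and 0.067 on GFP-negative arrays, also without overlap. Nor did the other classes overlap, apart from Pol III. The closest GFP-positive and GFP-negative arrays were at -0.044 and -0.024 for Mediator, -0.031 and -0.021 for TAFs, and -0.11 and -0.078 for the TfII factors. Pol III overlapped, with 0.052, -0.043 and 0.079 on GFP-positive and 0.041, 0.012 and -0.076 on GFP-negative arrays. Over all genes the same medians were -0.018 to -0.014 on GFP-positive arrays and within 0.0017 of 0 on GFP-negative arrays. These did not overlap either, so lack of overlap is not particular to a class. The sign for Pol III was not stable, since its median became -0.042 without GFP-positive replicate 3 and -0.023 without GFP-negative replicate 1.

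**Figure D2:**
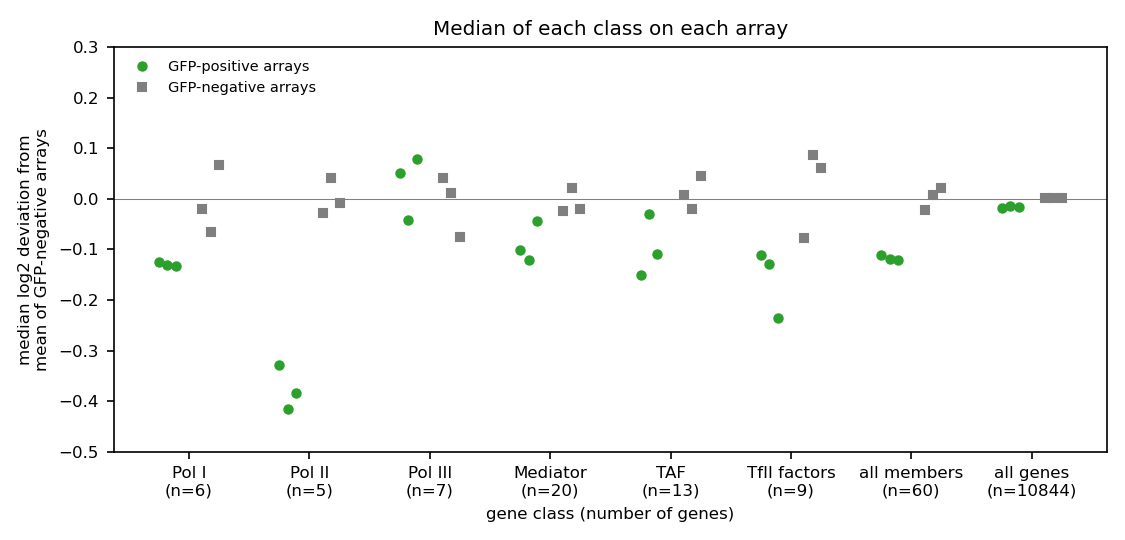
Median log2 deviation of each class from the mean of the GFP-negative arrays (vertical axis), drawn for the 3 GFP-positive arrays (circles) and the 3 GFP-negative arrays (squares). The GFP-positive arrays lie between -0.42 and -0.33 for Pol II, while for Pol III both groups lie between -0.076 and 0.079.

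All 5 measured Pol II genes had lower means in GFP-positive cells, 3 of them past the threshold. Polr2E (CG11979) encodes a small subunit shared by the polymerases. Its log2 signal was 7.70, 7.62 and 7.65 on GFP-positive arrays and 8.11, 7.96 and 8.03 on GFP-negative arrays. Every GFP-positive array lay below every GFP-negative one, with a difference of -0.38 ± 0.06 (SE, n = 3 per group), or 1.30-fold, and a limma adjusted p of 0.0204.

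Polr2J (CG6840), which encodes a core subunit of Pol II itself, had 8.17, 8.09 and 8.11 in GFP-positive cells and 8.39, 8.46 and 8.41 in GFP-negative cells. The groups were again apart, by -0.30 ± 0.06 (limma adjusted p = 0.0286). Polr2L (CG13628) encodes another shared small subunit. Its signal was 8.14, 7.97 and 8.24 in GFP-positive cells and 8.47, 8.43 and 8.49 in GFP-negative ones. The difference of -0.35 ± 0.07 lay just inside the threshold (limma adjusted p = 0.0492) and missed it after quantile normalization, median centring or a pseudocount of 32, with adjusted p-values of 0.0605, 0.0537 and 0.0575.

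Polr2H, a further shared subunit gene, had a larger difference than the Pol II genes called and a wider spread. It read 7.42, 7.53 and 7.15 on GFP-positive and 7.74, 7.91 and 7.81 on GFP-negative arrays, a difference of -0.45 ± 0.10 (limma adjusted p = 0.0584). Polr2M encodes a protein that associates with Pol II and that, in mammals, makes the polymerase dependent on Mediator. Its GFP-positive values of 4.95, 3.04 and 4.36 straddled the narrow GFP-negative range of 4.82, 4.91 and 4.84. The difference of -0.74 ± 0.42 did not pass (limma adjusted p = 0.486) and was -0.20 without GFP-positive replicate 2. Polr2A, the largest subunit, is not analysed here.

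**Figure D3:**
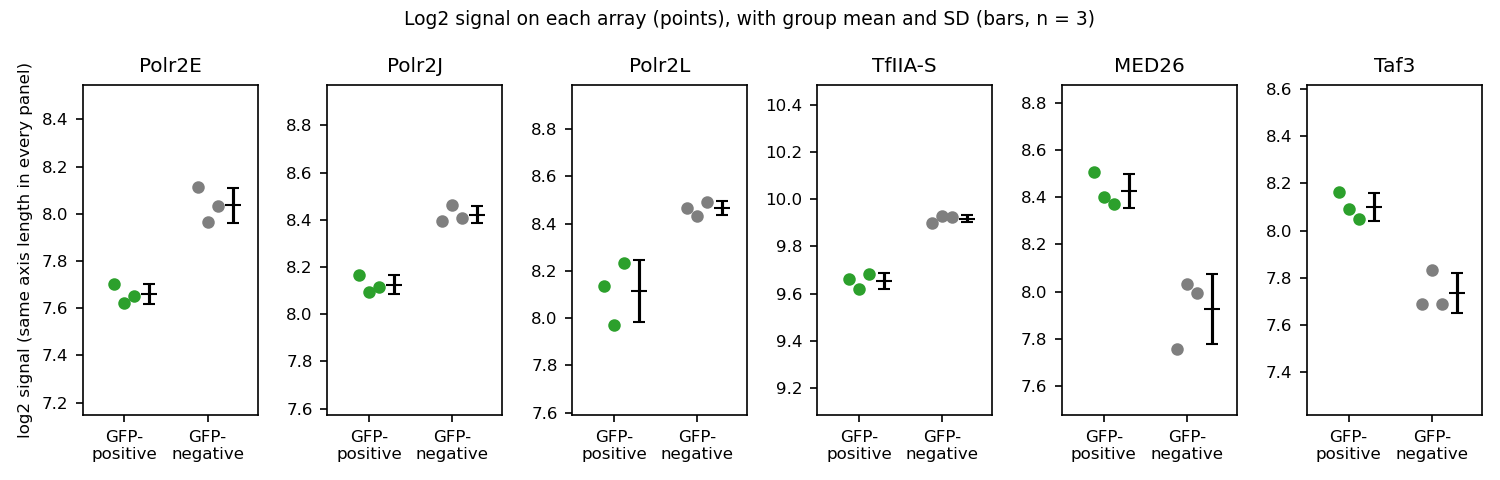
Log2 signal (vertical axis, the same length in every panel) of the 6 genes past the threshold on each array, GFP-positive at the left and GFP-negative at the right, with the group mean and SD beside the points. In each panel the 3 points of one group lie wholly above or below those of the other.

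None of the 6 Pol I genes passed the threshold. 1 of the 6 had an unadjusted limma p under 0.05, Polr1C, whose product is shared between Pol I and Pol III. Polr1C read 6.45, 6.26 and 6.40 on GFP-positive and 6.80, 6.71 and 7.03 on GFP-negative arrays. The groups did not overlap, and the difference of -0.48 ± 0.10 lay just outside the threshold (limma adjusted p = 0.0552). Polr1F, a stalk subunit gene, was also lower without overlap, at 6.22, 5.99 and 6.13 on GFP-positive against 6.34, 6.27 and 6.33 on GFP-negative arrays, a difference of -0.20 ± 0.09 (limma adjusted p = 0.378).

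The genes of the catalytic subunits of Pol I did not pass either. Polr1A, the largest subunit, had 8.04, 8.09 and 8.17 in GFP-positive cells and 7.92, 8.11 and 8.05 in GFP-negative ones, with overlapping groups and a difference of 0.07 ± 0.07. Polr1B, the second largest, differed by -0.20 ± 0.17, which rested on GFP-positive replicate 3. That array read 5.60, while the other arrays read between 6.08 and 6.36, and without it the difference was 0.0036. Polr1E and Polr1H differed by -0.085 and -0.15 with overlapping groups.

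Pol III was the class with the most even split, with 4 genes higher and 3 lower in GFP-positive cells. None passed the threshold, and 0 had an unadjusted limma p under 0.05. Polr3I had the largest difference, 5.07, 5.21 and 5.24 in GFP-positive cells and 4.88, 4.53 and 5.05 in GFP-negative cells. The groups narrowly missed each other, and the difference was 0.35 ± 0.17 (limma adjusted p = 0.396). Polr3C, of the subcomplex that helps open the promoter, read 5.06, 4.67 and 4.48 on GFP-positive against 5.27, 5.01 and 4.90 on GFP-negative arrays, with overlap and a difference of -0.32 ± 0.19.

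The genes of the catalytic Pol III subunits, Polr3A and Polr3B, differed by 0.15 ± 0.18 and 0.11 ± 0.16. Polr3E had tight values of 5.78, 5.85 and 5.77 in GFP-positive cells and 5.88, 5.91 and 5.89 in GFP-negative ones. Its groups stood apart although the difference was only -0.095 ± 0.093 (limma adjusted p = 0.725). The standard error of the fit draws on the spread of other probe sets at the same level and here exceeds the scatter of these 6 values.

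Among the TfII factors 8 of 9 had lower means in GFP-positive cells and 1 fell. TfIIA-S (CG5163) encodes the small subunit of TFIIA, which stabilises the TATA-binding protein on DNA. It read 9.66, 9.62 and 9.68 on GFP-positive and 9.90, 9.93 and 9.92 on GFP-negative arrays. The groups were apart, with an SD of 0.033 over the GFP-positive arrays and 0.016 over the GFP-negative arrays, and the difference had the smallest standard error of the 60 members, at a value of -0.26 ± 0.04 (limma adjusted p = 0.0181). TfIIA-L, which encodes the partner subunits of TFIIA, read 7.06, 7.14 and 6.99 on GFP-positive against 7.05, 7.21 and 7.25 on GFP-negative arrays. These overlapped, and the difference was -0.11 ± 0.08 (limma adjusted p = 0.617). Whether the TFIIA genes differ from each other in their response was not tested.

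TfIIB encodes the factor that bridges the TATA-binding protein and Pol II. It had 4.45, 4.60 and 3.73 in GFP-positive cells and 4.58, 4.88 and 4.82 in GFP-negative ones. The groups overlapped narrowly, and the difference of -0.50 ± 0.26 (limma adjusted p = 0.426) was -0.24 without GFP-positive replicate 3. TfIIFalpha, a subunit of the factor that escorts Pol II to the promoter, read 6.13, 5.89 and 5.96 on GFP-positive against 6.47, 6.19 and 6.61 on GFP-negative arrays. Here the groups were apart, by -0.43 ± 0.13 (limma adjusted p = 0.137).

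Its partner TfIIFbeta differed by only -0.022 ± 0.068, with 8.59, 8.49 and 8.63 in GFP-positive cells and 8.52, 8.71 and 8.56 in GFP-negative ones. Of the TFIIE genes, TfIIEalpha was lower without overlap, by -0.17 ± 0.10, and TfIIEbeta overlapped, with -0.14 ± 0.14. TfIIS, an elongation factor that rescues stalled polymerase and not an initiation factor, differed by 0.20 ± 0.32.

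The TAF family held differences in both directions, with 9 of 13 genes lower and 4 higher in GFP-positive cells. Taf3 (CG2009), a histone-fold subunit of TFIID that in mammals also reads a histone methylation mark, rose. It read 8.16, 8.09 and 8.05 on GFP-positive and 7.69, 7.83 and 7.69 on GFP-negative arrays. The groups were well apart, by 0.36 ± 0.07, or 1.29-fold (limma adjusted p = 0.0286).

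Taf4, a central TFIID subunit gene, also had a higher mean, and it is described because its probe sets gave different calls, a choice made after its values were seen. The brighter probe set read 7.80, 7.36 and 7.38 in GFP-positive cells and 7.27, 7.02 and 6.72 in GFP-negative ones, a difference of 0.51 ± 0.16 that did not pass (limma adjusted p = 0.157). The other probe set read 7.26, 7.28 and 7.27 on GFP-positive against 6.73, 6.93 and 6.82 on GFP-negative arrays, a difference of 0.44 ± 0.08 that did (limma adjusted p = 0.0206). Neither probe set had overlapping groups.

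Taf7, a TFIID subunit that contacts Taf1, had the largest difference of the members above background. It read 2.61, 2.58 and 2.80 on GFP-positive and 3.73, 3.62 and 3.82 on GFP-negative arrays. The groups lay far apart relative to their scatter, with a difference of -1.06 ± 0.36, but this did not pass (limma adjusted p = 0.199). On single arrays the highest control probe set for other organisms reached 2.58 to 3.55, so the GFP-positive signal of Taf7 overlapped the range of the brightest controls. Taf12L, a Taf12 paralog, had 1.94, 3.31 and 2.56 in GFP-positive cells and 2.99, 3.30 and 3.33 in GFP-negative ones, overlapping and in the same dim range (difference -0.60 ± 0.49).

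Of the remaining TAF genes, Taf8 (-0.36 ± 0.11), Taf10 (-0.31 ± 0.10), Taf5 (-0.26 ± 0.09) and Taf12 (-0.11 ± 0.06) were lower in GFP-positive cells without overlap, none past the threshold. Taf8 and Taf10 form a histone-fold pair in TFIID. Taf8 read 5.57, 5.43 and 5.62 on GFP-positive against 5.85, 5.80 and 6.04 on GFP-negative arrays, and Taf10 read 6.50, 6.33 and 6.57 on GFP-positive against 6.64, 6.75 and 6.94 on GFP-negative arrays. Taf1, the largest TFIID subunit, Taf6, Taf9 and Taf13 had overlapping groups, with differences of -0.054, -0.095, 0.0042 and -0.17.

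In Mediator 13 of 20 genes were lower and 7 higher in GFP-positive cells, and 1 gene was called. MED26 (CG1793), of the subunit that links Mediator to elongation factors, rose. It read 8.51, 8.40 and 8.37 on GFP-positive and 7.76, 8.03 and 7.996 on GFP-negative arrays. The difference of 0.50 ± 0.08, or 1.41-fold, passed (limma adjusted p = 0.0197). A second MED26 probe set read 7.86, 8.25 and 8.42 on GFP-positive against 7.21, 7.995 and 7.90 on GFP-negative arrays. There the groups overlapped and the difference of 0.48 ± 0.21 did not pass (limma adjusted p = 0.335).

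The Mediator genes with the largest differences that did not pass were MED10 and MED28. MED10, of the middle module, had 4.97, 5.00 and 4.62 in GFP-positive cells and 5.17, 5.57 and 5.81 in GFP-negative ones. MED28 had 5.36, 5.17 and 5.43 on GFP-positive against 5.69, 6.08 and 5.99 on GFP-negative arrays. Both were apart without overlap, with differences of -0.66 ± 0.19 and -0.60 ± 0.14 and limma adjusted p-values of 0.135 and 0.0645.

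Sorted by module, the 3 measured genes of the metazoan group MED27, MED28 and MED30 were all lower without overlap, with a median of -0.47. Of genes above background in both groups 14.4% were lower without overlap. None of the 3 was called, and they are short, spanning 1198, 743 and 1103 bp. After the span adjustment described further below their differences were -0.16, -0.44 and -0.32. MED27 read 5.56, 5.72 and 5.76 on GFP-positive against 6.06, 5.82 and 6.09 on GFP-negative arrays, and MED30 read 5.42, 5.27 and 5.40 on GFP-positive against 5.72, 6.03 and 5.75 on GFP-negative arrays. The medians were -0.11 over 7 head genes, -0.034 over 5 middle genes and -0.013 over 5 tail and scaffold genes, and 1 of the 7 head genes had groups apart, MED11, at -0.18 ± 0.09. The scaffold gene MED14 differed by 0.20 ± 0.17 and the head genes MED17 and MED18 by 0.011 and 0.0083. No test compares the modules.

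Genes of the same machinery under other symbols were counted as well. Lists of TFIIH, the Mediator kinase module, the TATA-binding protein family, TAF proteins under other symbols, elongation factors, SAGA and Integrator held 59 measured genes. By limma 0 were called, where 2.47% of all genes and 3.85% of genes above background in both groups were. At such shares 59 genes would hold few calls or none. Of the 59, 12 (20.3%) had an unadjusted p under 0.05, 4 higher and 8 lower, where 7.33% and 8.29% of all genes were. Above background in both groups were 56 of the 59, and 21.5% of all genes above background had such a p, so the share was not raised. Their median log2 difference was -0.072. Tbp, the TATA-binding protein gene itself, had means of 6.32 in the GFP-positive group and 6.40 in the GFP-negative group, a difference of -0.083 ± 0.089.

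In these lists the medians were -0.0088 over 9 TFIIH genes, -0.083 over 4 kinase module genes, -0.15 over 5 genes of the TATA-binding protein family, -0.056 over 4 other TAF genes, -0.18 over 15 elongation genes, -0.0050 over 10 SAGA genes and -0.027 over 12 Integrator genes. The kinase module median joins opposed differences, 0.41 ± 0.11 for skd, -0.43 ± 0.15 for Cdk8 and -0.25 ± 0.08 for CycC. These 3 had no overlap, while kto overlapped (0.087 ± 0.087). Of the 15 elongation genes 8 had no overlap, 3 higher and 5 lower. All 15 had a mean log2 signal above 4. No overlap was seen in 31.4% of genes at that level and in 20.2% of all genes. The gene nearest to the threshold, named for that reason, was Trf2, a TATA-binding protein relative, at 0.53 ± 0.12 (limma adjusted p = 0.0626). The testis TAF genes can, nht and sa were below background in both groups.

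The members' differences moved with the length of their genes. Gene span here is the distance from start to end of the annotated gene in Release 6 of the fly genome. Of 29 members with a span under 1407 bp, 25 were lower in GFP-positive cells and 4 were called, all as falls, where 54 of 1033 genes of that span with a mean above 4 fell (5.23%). Of 10 members spanning over 5183 bp, 8 were higher and 2 were called, both as rises, where 130 of 1551 such genes rose (8.38%). Unlike these genes, the members were taken at every level, and 55 of the 60 had a mean above 4. The 4 genes that fell span 488 bp (Polr2L), 673 bp (TfIIA-S), 709 bp (Polr2J) and 1030 bp (Polr2E), and those that rose span 6942 bp (Taf3) and 10463 bp (MED26).

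The same trend ran through the whole array. Of genes with a mean above 4, 76.8% of 1033 with a span under 1407 bp were lower in GFP-positive cells, and 27.9% of 1551 with a span over 5183 bp. Spearman's rho between span and difference was 0.52 over the 60 members, taken at every level, and 0.43 over 5169 genes with a mean above 4. Both are descriptions across genes of the same 6 arrays, and genes are not independent replicates.

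Set beside genes of like span, the falls of Polr2E, Polr2J and Polr2L were larger than the median. Genes with a mean above 4 had a median log2 difference of -0.18 in the decile of span that holds Polr2J, Polr2L, Polr2H and TfIIA-S. In the decile of Polr2E it was -0.15. It was 0.14 for MED26 and 0.076 for Taf3. After each array was adjusted for the trend with span, the differences were -0.22 ± 0.06 for Polr2E, -0.13 ± 0.06 for Polr2J, -0.18 ± 0.07 for Polr2L, -0.098 ± 0.043 for TfIIA-S, 0.35 ± 0.08 for MED26 and 0.27 ± 0.06 for Taf3. None of the 6 passed (limma adjusted p from 0.107 to 0.441), while 1.19% of all genes with a span still did. Over all members the median became -0.020, with 33 lower and 27 higher. The median of the Pol II genes became -0.22 and that of Mediator 0.039.

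**Figure D4:**
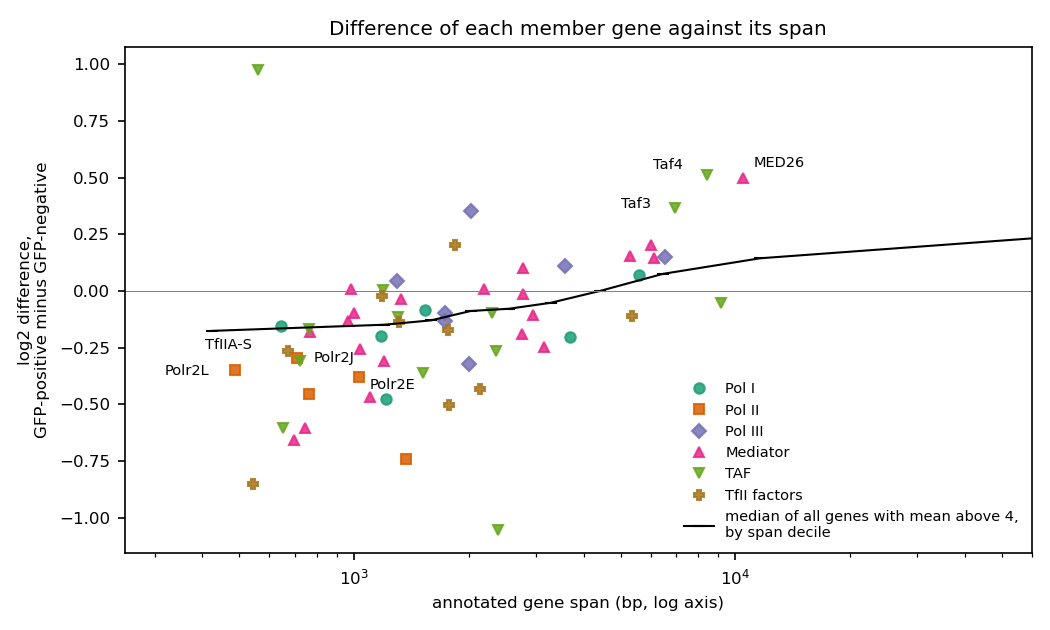
Log2 difference of each member (vertical axis) against the annotated span of its gene in bp (log axis), with a symbol per class. The line joins the medians of all genes with a mean above 4 in deciles of span, which run from -0.18 at the short end to 0.24 at the long end, and the 4 labelled genes that fell lie below it while MED26 and Taf3 lie above it.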

How the data were processed

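The values deposited by the authors are log2 signals, 1 for each probe set on each array. The submitters' processing notes name affy. How background, scaling and summary were done is not given in the sources used here. Base 2 was inferred from the range of the values (highest 12.9). Array medians lay between 3.71 and 3.73, and Pearson's r between arrays from 0.917 to 0.945, with means of 0.932 within and 0.930 between groups. If the authors equalised the arrays first, a shift shared by most genes would be invisible. The number of arrays limits the precision.

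Of 14010 probe sets, 44 controls were left out. The platform's annotation gave 1 gene for 12443, several for 327 and none for 1196. All 60 members matched the reference gene table (Release 6) by Entrez identifier with no change of symbol, and 2 had a second probe set. Probe sets shared with another gene (Taf11, Polr3K, MED23, MED9) were not used.

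GFP-positive minus GFP-negative was tested by limma (version 3.58.1, under R 4.3.3; lmFit, then eBayes with trend and robust options, 2-sided, Benjamini-Hochberg over all probe sets), and the code was tested on simulated data. The level-dependent prior was taken because the median within-group SD was 0.87 at levels of 0 to 2 and 0.077 above 8. Members, lists and this choice were made with earlier results of these data known. The rule for named genes covers the members called, per class the brightest and up to 2 uncalled ones with the largest difference above background, and Tbp. Other genes are named outside this rule, among them Polr1F, TfIIA-L, TfIIFbeta, Taf8, Taf10, MED27 and MED30. Their choice was not fixed beforehand. Lists are described by counts and medians. The span adjustment subtracts, on each array, a lowess curve of deviation against log10 span, fitted to genes with a mean above 4. The planned motif search in promoters was not run, as no promoter sequences were used here.

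Whether the replicate numbers of the titles pair the arrays was not settled by the check used, and they were not treated as pairs. The correlation of deviations between same-numbered arrays was 0.060, 0.012 and 0.024. The highest with another number was -0.0087, 0.019 and -0.0033.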

Additional observations from a re-analysis of the deposited data

How the results depend on the processing

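The limma calls depended on the variance model, on the number of arrays and on gene span, and precision is limited by 3 arrays a group. With a single prior variance 0 of 13966 probe sets and 0 of 60 members were called, against 340 and 6, although 1482 and 14 had an unadjusted p under 0.05. Without the dimmest 40% of probe sets 655 and 10 were called, where fewer probe sets are tested, and after the span adjustment 133 and 0. Leaving out 1 array gave 102 to 189 probe sets and 0 to 3 members, with fewer arrays in the fit. In these fits MED26 stayed past the threshold in 2 of 6, Polr2E, TfIIA-S and Taf3 in 1 of 6, and Polr2J and Polr2L in 0 of 6.

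The median log2 difference ranged, without 1 array, from -0.17 to -0.13 for all members, -0.20 to -0.12 for Pol I, -0.41 to -0.28 for Pol II, -0.042 to 0.088 for Pol III, -0.13 to -0.046 for Mediator, -0.18 to -0.11 for TAFs and -0.21 to -0.17 for the TfII factors. The pseudocount of 32 moved it to -0.089 for all members, -0.11 for Pol I, -0.32 for Pol II, -0.063 for Mediator and -0.088 for the TfII factors. The span adjustment moved it to -0.020 for all members, -0.020 for Pol I, -0.22 for Pol II, 0.039 for Mediator, -0.016 for TAFs and -0.098 for the TfII factors. Ignoring case in the symbols, which adds TAF1B and TAF1C-like, moved the TAF median to -0.17. Beyond these constructions the cause was not tested.

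With the replicate number as a block 437 probe sets and 9 members were called, 3 higher and 6 lower. The arrays of replicates 1 and 3 correlated best with their own number and replicate 2 did not. Pairing is thus undecided, and the numbers are not taken as pairs in the main fit. With the block Polr1C, Polr2H and Taf4 also passed (adjusted p = 0.0391, 0.0348 and 0.0242). After the span adjustment 10 members turned from lower to higher in GFP-positive cells, none of them called: MED4, MED8, MED25, MED31, Polr1E (0.040), Polr1H (0.011), Polr3E (0.014), Taf12 (0.026), TfIIEbeta (0.0038) and TfIIFbeta (0.13). Tbp, which is no member, turned too (0.048). Without 1 array 2 to 6 members changed sign, none of them called, among them Polr1B without GFP-positive replicate 3 (0.0036, in a range of -0.33 to 0.0036 over these fits). Quantile normalization, median centring, array weights, the mean of all probe sets of a gene and leaving out members below background gave 5 or 6 members called.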

Other observations

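Both members that rose, MED26 and Taf3, lie on the small chromosome 4, and they are the only members there. This was noticed after the values were seen. Of 32 chromosome 4 genes with a mean log2 signal above 4, 29 had a higher mean in GFP-positive cells, 3 were called higher by limma (9.38%) and 0 lower, and 2 of these 3 are MED26 and Taf3 themselves. On the other arms 2.58% to 4.25% of such genes were called higher. Of the 30 chromosome 4 genes that are not members, 27 had a higher mean and 1 was called. The median log2 difference of all 32 was 0.21, and 0.20 without the members, while the medians of the other arms lay between -0.052 and -0.018. Chromosome 4 genes are also long, with a median span of 9898 bp against 2714 to 3204 bp on the other arms. After the span adjustment their median was 0.094, those of the other arms lay between -0.018 and 0.0093, and 0 chromosome 4 genes were called higher. The difference between chromosome 4 and the other arms was not tested.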
